A study of Mus musculus with 23 samples.

Results

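The 44 genes described here carry the Hedgehog signal inside the cell or build the primary cilium in which it is read, and they were taken by gene symbol from the 23512 features of the deposited count table. They comprise 3 ligands (Shh, Ihh, Dhh), 4 genes of ligand processing and release (Hhat, Disp1, Scube1, Scube2), the 3 GLI transcription factors (Gli1, Gli2, Gli3), 5 regulators of these factors (Sufu, Kif7, Spop, Stk36, Csnk1a1), and 29 cilium genes. Receptors and co-receptors were left out of the set on purpose. RNA came from whole mouse hearts at embryonic day 13.5, all labelled as strain C57BL/6. The 7 triple-knockout hearts carried floxed alleles on both copies of Grk2 and of Grk5, a Grk6 knockout on both copies and the Nkx2.5Cre driver. The 8 haploinsufficient hearts carried the same Grk5, Grk6 and Cre alleles but a floxed allele on only one copy of Grk2. In the 8 wild-type hearts all 3 kinase genes were unmodified and Cre was not carried. Nkx2.5Cre expresses the recombinase in the cardiac lineage, so the floxed genes could remain intact in other cells of these hearts, whereas the Grk6 knockout applies to every cell. Loss of Grk5, loss of Grk6, the modified Grk2 allele and the presence of Cre cannot be told apart in a comparison with wild type, and the GRK groups differ from each other by label only in the second Grk2 allele. Nkx2-5 itself, the cardiac transcription factor whose locus gives the driver its name, stood at 26.5 to 61.7 CPM in triple-knockout, 47.5 to 94.0 CPM in haploinsufficient and 82.7 to 114 CPM in wild-type libraries, and cannot be told apart from genotype either. Whether each library is from its own embryo is not stated in the labels, and the p-values therefore cover the variation among these libraries, part of which may be technical.

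Hedgehog ligands are lipid-modified secreted proteins that bind Patched at the primary cilium, a single non-motile projection of most cells, and thereby release Smoothened into it. Intraflagellar transport carries Smoothened, Sufu and the GLI factors along the cilium, where Gli2 and Gli3 are kept from being cut into repressors. Gli1 is both a GLI factor and a direct transcriptional target, and is therefore widely used as a readout of the pathway. In mouse embryos, Shh from the foregut and pulmonary endoderm acts on the second heart field, whose dorsal mesenchymal protrusion helps to close the atrioventricular septum, and mutants of several cilium genes have atrioventricular septal defects. Grk2 phosphorylates Smoothened, which links the kinases studied here to this pathway.

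Total counts ran from 6657734 to 13864731 in triple-knockout libraries, from 1757257 to 11025358 in haploinsufficient libraries and from 3838166 to 14050559 in wild-type libraries. At 3 counts, the limit that a count of 0 allows, this corresponds to between 0.199 and 1.75 CPM, the count scaled to the library size, which covers counting error only. The gene Grk2, listed as Adrbk1, stood at 26.3 to 42.7 CPM in triple-knockout libraries, 21.8 to 57.4 CPM in haploinsufficient libraries and 48.8 to 60.4 CPM in wild-type libraries. Defining heart markers were high throughout, with a sum over 7 cardiomyocyte genes of 45090 to 83380 CPM in triple-knockout, 29730 to 81420 CPM in haploinsufficient and 49950 to 71900 CPM in wild-type libraries. Some libraries also held markers of tissue next to the heart. The markers of lung and foregut mesenchyme summed to 7.59 to 110.4 CPM in triple-knockout, 5.00 to 198.1 CPM in haploinsufficient and 4.09 to 33.4 CPM in wild-type libraries. A marker score was formed as the mean log2 CPM of 21 genes typical of lung and foregut, of liver or of thymus, minus its wild-type mean. The liver markers did not follow this score, at 4.39 to 35.1 CPM in the libraries that exceed 1.5 and 8.60 to 35.6 CPM in the others. The score exceeded 1.5 in 3 of 7 triple-knockout, 3 of 8 haploinsufficient and 1 of 8 wild-type libraries. Of the 7 markers of endothelium and endocardium, 1 fell in triple-knockout and 3 in haploinsufficient hearts against wild type, where 1.19% and 2.21% of all genes passed in either direction. Their sum was 794 to 998 CPM, 706 to 931 CPM and 837 to 1101 CPM in triple-knockout, haploinsufficient and wild-type libraries. The part of endothelial and endocardial RNA in the results below was not tested. Fewer cells of a type and less RNA per cell cannot be told apart in whole hearts.

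In the wild-type heart the cilium machinery was expressed throughout, whereas Gli1, Ihh and Shh were the lowest of the 44 genes. Levels were compared as CPM per kb of exon, so that genes of different length can be set side by side. Csnk1a1, which encodes casein kinase 1 alpha, a kinase that phosphorylates the GLI factors, was highest at 77.1 ± 7.92 CPM per kb (SD, n = 8). It was followed by Ift20 of the transport complex IFT-B at 42.9 ± 5.52 and Spop, the adaptor that targets full-length Gli2 and Gli3 for degradation, at 18.9 ± 4.29 CPM per kb. Rab34, a GTPase needed to start the cilium, stood at 15.5 ± 2.06 CPM per kb and Ift122 of IFT-A at 13.3 ± 1.61. The ranges of Spop and Rab34 overlapped, as did those of Rab34 and Ift122, so their order is not resolved. Of the GLI factors, Gli3 was at 5.74 ± 0.886, Gli2 at 2.31 ± 0.370 and Gli1 at 0.768 ± 1.07 CPM per kb (SD, n = 8 each), and the wild-type ranges of Gli3 and Gli2 did not overlap. Dhh, the ligand known for its roles in gonads and peripheral nerve, was at 2.00 ± 0.619 CPM per kb. Ihh and Shh, at 0.0997 ± 0.0894 and 0.0885 ± 0.127 CPM per kb, were the lowest, with 14 and 10 counts over all 8 wild-type libraries and 2 libraries at 0 for each.

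**Figure D1:**
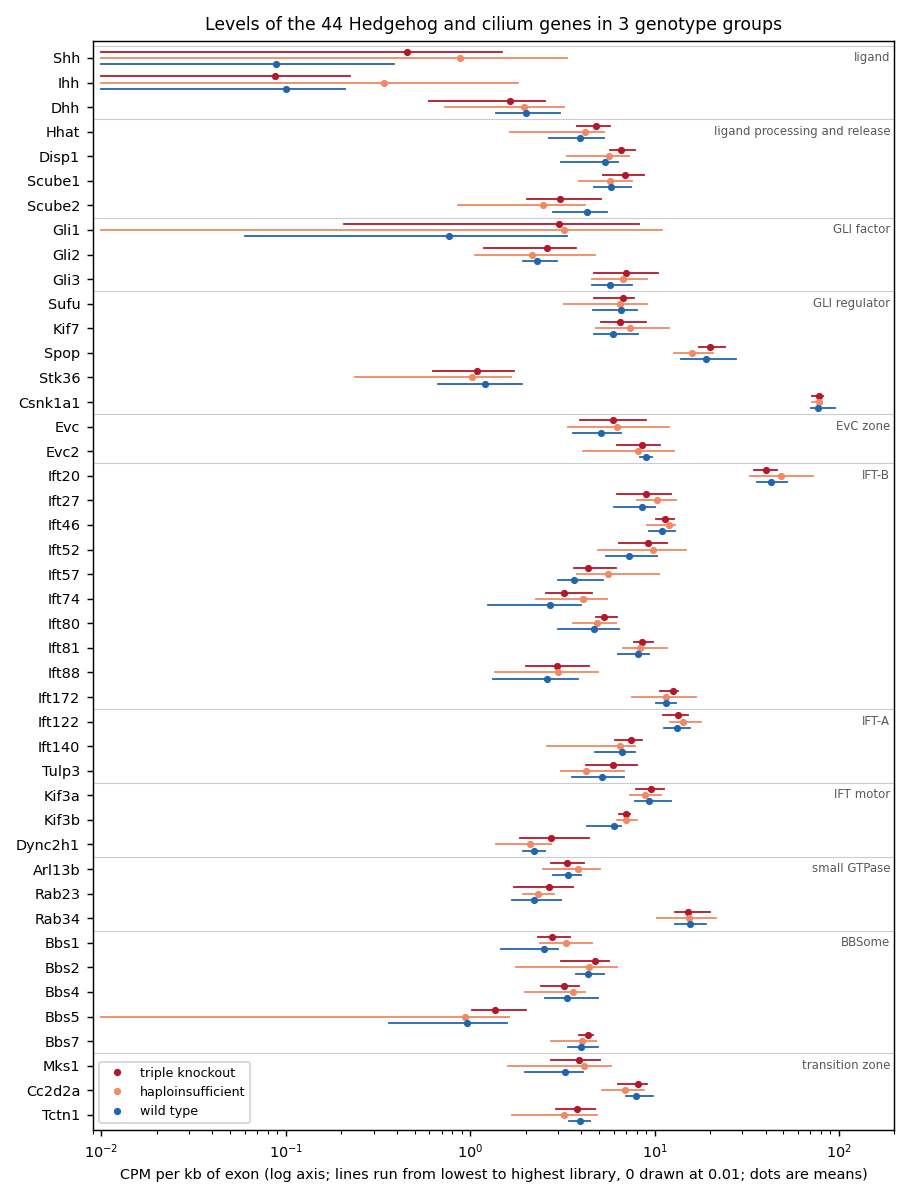
Levels of the 44 genes by group, as CPM per kb of exon on a log axis, with dots for the group mean and lines from the lowest to the highest library (a level of 0 is drawn at 0.01). Triple-knockout, haploinsufficient and wild-type lines lie over each other for nearly every gene, while Shh and Gli1 span the widest ranges.

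The question each comparison addresses is whether loss of the kinases came with a different level of these genes. Of the 44 genes, 42 passed the edgeR expression filter, and Shh and Ihh did not. None of the 42 passed the edgeR quasi-likelihood test at an adjusted p under 0.05 in triple-knockout hearts against wild type, where 1.19% of the 13941 genes tested did. None passed in haploinsufficient hearts against wild type (2.21% of all genes) or in triple-knockout against haploinsufficient hearts (0.323% of all genes). At an unadjusted edgeR p under 0.05 there were 3, 7 and 4 of 42 genes in the 3 comparisons in that order, against 10.5%, 16.7% and 15.2% of all genes. DESeq2 called 0, 1 and 0 of 44 members, the one being Ift57, against 282, 531 and 276 of 21653 genes. On the deposited FPKM values limma called no member at either pseudocount. Of all 13941 genes it called 119, 300 and 0 at a pseudocount of 0.1 and 129, 318 and 0 at a pseudocount of 1. In the third comparison the limma result therefore says nothing particular to the members. No member had CPM values that separated any pair of groups completely, which 0.933%, 0.452% and 0.0933% of all genes did in the 3 comparisons.

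The size of what could have been missed differed among the genes. In triple-knockout against wild-type hearts, the 95% interval of the fold change lay within 1.5-fold in either direction for 26 of 42 members and 66.3% of all genes. The corresponding numbers were 24 of 42 and 62.1% for haploinsufficient against wild-type hearts, and 30 of 42 and 61.5% for triple-knockout against haploinsufficient hearts. Log2 fold changes were positive for 33 of 42 members in triple-knockout against wild-type hearts, where 51.9% of all genes were positive, with a median of 0.13 against 0.0085 over all genes. In haploinsufficient against wild-type hearts 28 of 42 were positive (52.0% of all genes), with a median of 0.050 against 0.011. In triple-knockout against haploinsufficient hearts 26 of 42 were positive (50.4% of all genes), with a median of 0.046 against 0.0028. The first 2 comparisons share the 8 wild-type libraries. With the marker score as a covariate the members' medians were 0.040, -0.036 and 0.10, so the second one turned its sign.

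**Figure D2:**
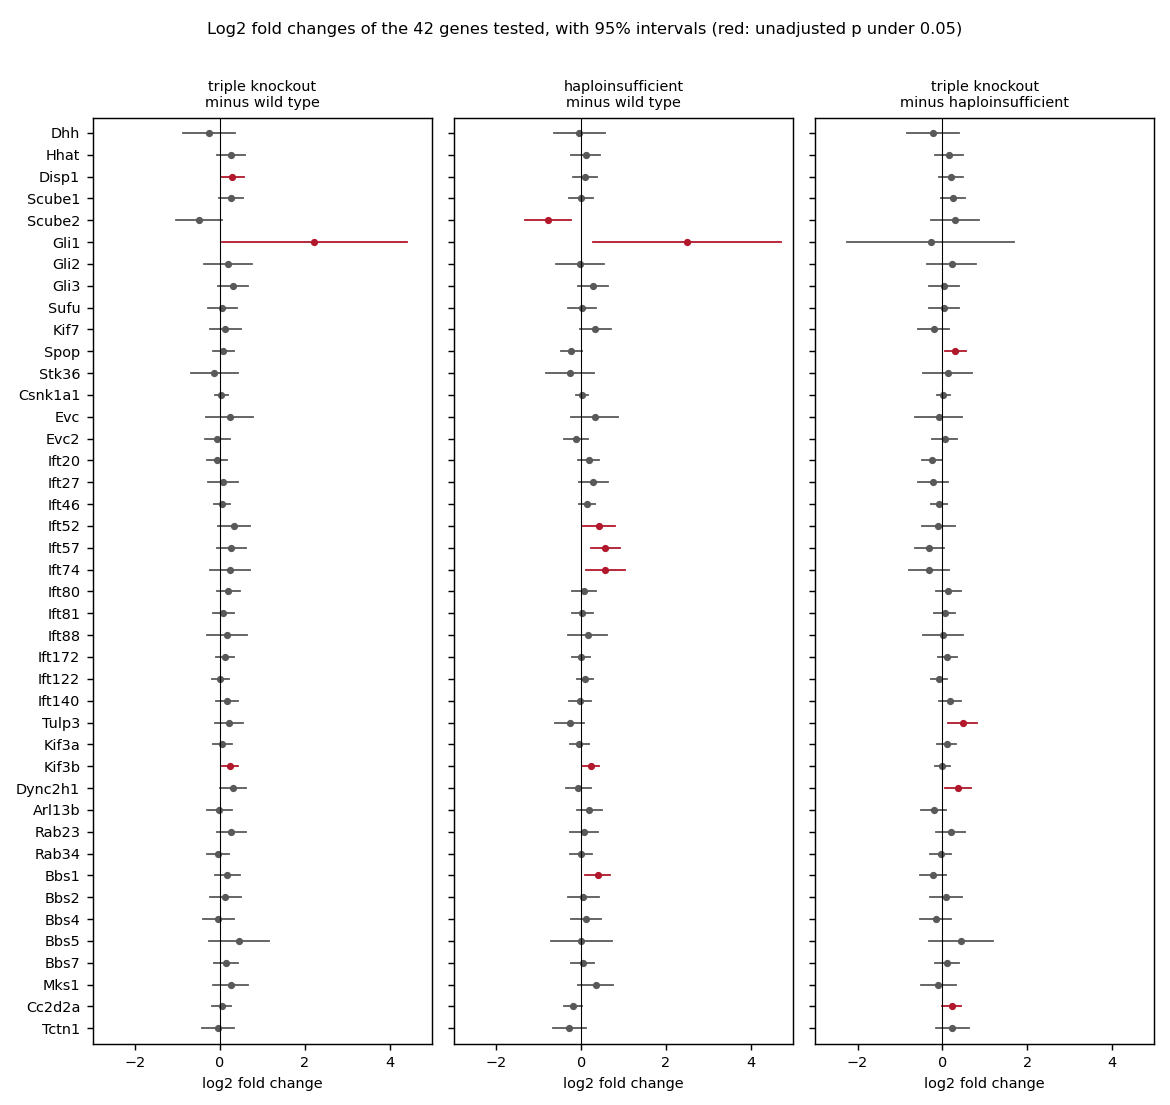
Log2 fold changes of the 42 genes tested in the 3 comparisons, with approximate 95% intervals formed from the edgeR F statistic. Red marks an unadjusted p under 0.05. Most points lie near 0, and Gli1 has by far the widest interval in each panel.

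Gli1 (mm10 chromosome 10, 127329882 to 127341579, minus strand) was the member with the largest estimates and the largest spread. Its level ran from 0.757 CPM through a median of 5.53 to 30.02 CPM in the 7 triple-knockout libraries, from 0 through 5.18 to 40.3 CPM in the 8 haploinsufficient libraries and from 0.221 through 1.80 to 12.3 CPM in the 8 wild-type libraries. Each group held libraries near or under 1 CPM. In wild type only replicate 4 exceeded 2.57 CPM, whereas 3 triple-knockout and 3 haploinsufficient libraries lay above every wild-type library. In triple-knockout hearts against wild type the log2 fold change of Gli1 was 2.22 ± 1.04 (SE), with a 95% interval of 0.03 to 4.40 and an edgeR adjusted p = 0.458. It was 2.49 ± 1.06 in haploinsufficient hearts against wild type, with an interval of 0.27 to 4.71 and an edgeR adjusted p = 0.235. Between triple-knockout and haploinsufficient hearts it was -0.27 ± 0.94 (edgeR adjusted p = 0.924). The within-group SD of log2 CPM was 2.31 for Gli1, rank 16 from the largest among 13946 genes.

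The libraries with high Gli1 were, in each genotype, those with a high score of neighbouring-tissue markers, a list that holds no member of the set. The list does hold Foxf1, a Hedgehog target gene of mesenchyme, so the score is not independent of the pathway. In the 7 libraries whose marker score exceeded 1.5, Gli1 ran from 12.3 to 40.3 CPM, with a median of 22.4. In the other 16 libraries it ran from 0 to 7.44 CPM, with a median of 1.11, so the ranges did not overlap. How many of all genes separate these libraries in the same way was not counted, so the separation is not shown to be particular to Gli1. Wild type gave only 1 of the 7 libraries, replicate 4, whose score of 1.534 lies just above the limit of 1.5. Epcam, an epithelial adhesion gene absent from cardiomyocytes and one of the score's markers, ran from 9.91 to 52.6 CPM in those 7 libraries and from 0 to 7.76 CPM in the other 16. Other marker sums differed between these libraries as well. The 7 cardiomyocyte genes summed to 35750 to 63800 CPM in the 7 libraries and 29730 to 83380 CPM in the other 16, and the endothelial and endocardial genes to 706 to 912 CPM and 789 to 1101 CPM. Of 7 markers of neural crest, neurons and glia, 6 were tested. All 6 were positive in triple-knockout hearts against wild type (51.9% of all genes), with a median log2 fold change of 1.22. Of these, 5 had an unadjusted edgeR p under 0.05 (10.5% of all genes) and none passed. In haploinsufficient hearts against wild type 5 of the 6 markers were positive (52.0% of all genes) and 0 were under that p (16.7%). Their sum was 15.6 to 108.2 CPM in the 7 libraries, highest in triple-knockout replicates 1 and 7, and 11.1 to 36.5 CPM in the other 16. The part of these cell types in the Gli1 values was not tested. With the score as a covariate, the Gli1 log2 fold change was -0.41 in triple-knockout hearts against wild type, -1.26 in haploinsufficient hearts against wild type (edgeR adjusted p = 0.189) and 0.85 in triple-knockout against haploinsufficient hearts. Without the 7 libraries it was 0.49, -0.11 and 0.60 in the same order. The adjusted p of Gli1 was above 0.05 in all 40 alternative settings of each comparison, and its value in haploinsufficient hearts against wild type ranged from -1.26 to 3.77 over them. Within library IDs 1 to 12 the Gli1 log2 fold change was 1.90 in triple-knockout and 1.06 in haploinsufficient hearts against wild type, and within IDs 19 to 30 it was 2.77 and 3.77. Libraries were not stranded, and 1.69% of the Gli1 exon length overlaps Arhgap9.

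**Figure D3:**
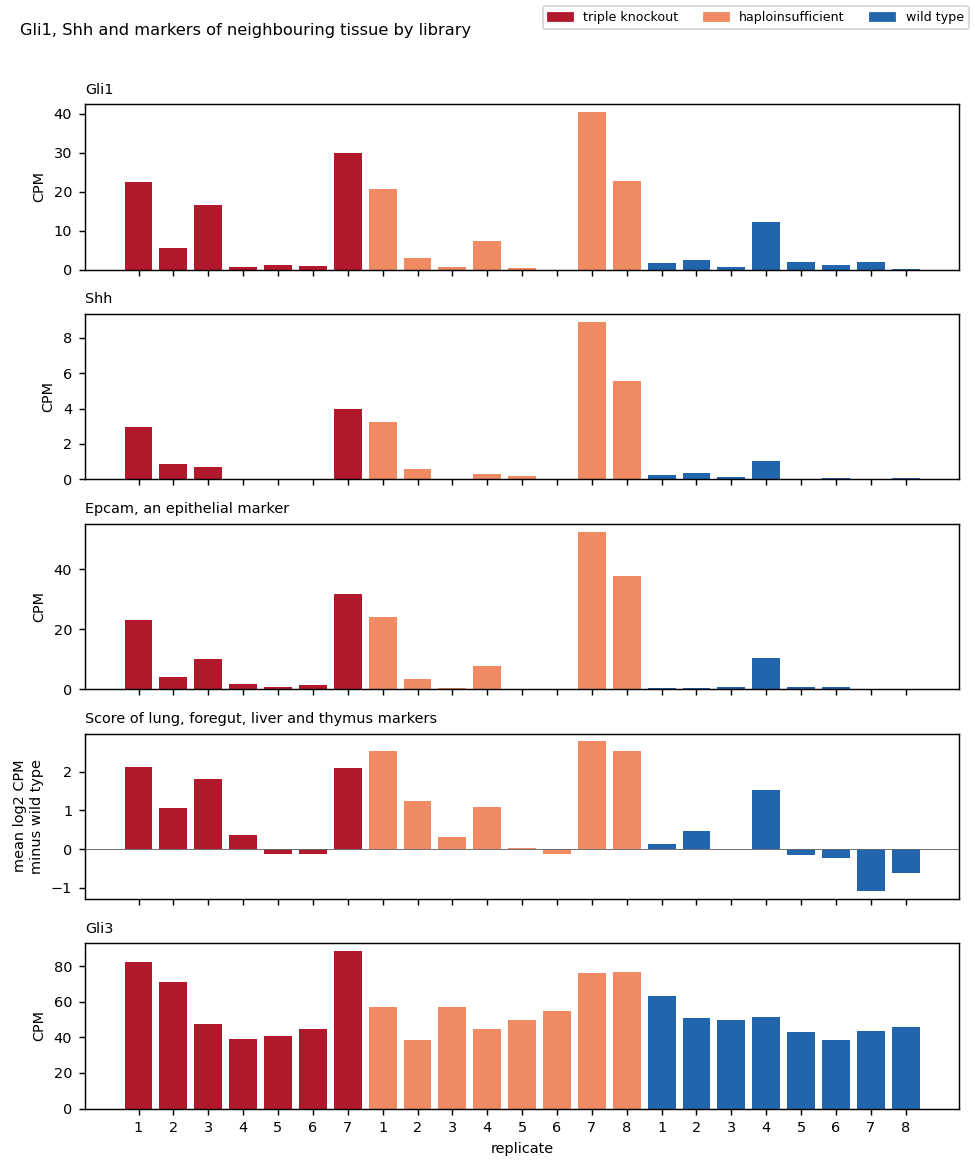
Gli1, Shh, Epcam and Gli3 levels in CPM and the score of 21 neighbouring-tissue markers (mean log2 CPM minus the wild-type mean) in each of the 23 libraries, numbered by replicate within group. Tall Gli1 bars stand over tall Epcam and score bars in all 3 groups, while Gli3 is present in every library and reaches its highest values, 47.7 to 88.4 CPM, in the 7 libraries with a score over 1.5, against 38.5 to 70.9 CPM in the other 16.

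Shh, the ligand of foregut and lung epithelium in the embryo, was seen in the same libraries. Its counts were 45, 11, 5, 0, 0, 0 and 28 in triple-knockout replicates 1 to 7. They were 13, 1, 0, 1, 1, 0, 99 and 29 in haploinsufficient replicates 1 to 8, and 1, 2, 1, 4, 0, 1, 0 and 1 in wild-type replicates 1 to 8. In the 7 libraries with a score over 1.5, Shh was between 0.688 and 8.90 CPM, and in the other 16 between 0 and 0.882 CPM, with a median of 0.0816 CPM. Shh overlaps 9530036O11Rik over 4.42% of its exon length. Ihh, the ligand of cartilage and gut, had at most 0.542 CPM in a triple-knockout library, 4.45 CPM in a haploinsufficient library and 0.514 CPM in a wild-type library. Dhh was present in every library, at 3.90 ± 1.44 CPM (SD, n = 7) in triple-knockout hearts, 4.62 ± 2.11 CPM (SD, n = 8) in haploinsufficient hearts and 4.74 ± 1.47 CPM (SD, n = 8) in wild-type hearts. Its log2 fold changes against wild type, -0.27 and -0.05, were smaller than their standard errors of 0.30, and the adjusted p-values of edgeR were 0.835 and 0.958.

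Genes of ligand processing and release gave 1 low estimate, for Scube2. Scube2 (mm10 chromosome 7, 109798691 to 109865679, minus strand) encodes a secreted protein that helps to free the lipid-modified ligand from the producing cell. It ran from 7.26 through a median of 8.94 to 18.3 CPM in triple-knockout libraries, from 3.07 through 8.70 to 14.998 CPM in haploinsufficient libraries and from 10.01 through 14.3 to 19.6 CPM in wild-type libraries. The 4 lowest haploinsufficient libraries lay below every wild-type library, and the other 4 lay within the wild-type range. The log2 fold change was -0.50 ± 0.26 in triple-knockout hearts (edgeR adjusted p = 0.528) and -0.79 ± 0.27 in haploinsufficient hearts (edgeR adjusted p = 0.124), both against wild type. Scube2 was lower where the marker score was higher: it ran from 3.07 to 11.5 CPM in the 7 libraries with a score over 1.5 and from 4.67 to 19.6 CPM in the other 16. With the score as a covariate its log2 fold changes were -0.03 and -0.30. Disp1, the transporter that releases the ligand, averaged 33.1 ± 4.39 CPM (SD, n = 7) in triple-knockout hearts, 28.4 ± 6.03 CPM in haploinsufficient hearts and 27.0 ± 5.35 CPM in wild-type hearts (SD, n = 8 each). Its log2 fold change in triple-knockout hearts against wild type was 0.29 ± 0.14 (edgeR adjusted p = 0.433), and 0.20 without wild-type replicate 3. For Hhat, the acyltransferase that adds palmitate to the ligand, and Scube1, log2 fold changes lay between 0.00 and 0.26 in all 3 comparisons.

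The GLI factors that read the signal, Gli2 and Gli3, were present in every library. Gli3 (mm10 chromosome 13, 15463723 to 15730025, plus strand), the main GLI repressor, ran from 39.3 through a median of 47.7 to 88.4 CPM in triple-knockout libraries, from 38.5 through 55.9 to 76.7 CPM in haploinsufficient libraries and from 38.6 through 47.7 to 63.3 CPM in wild-type libraries. The 3 groups shared their lower end and differed at the upper end. The log2 fold change of Gli3 against wild type was 0.31 ± 0.17 in triple-knockout and 0.27 ± 0.17 in haploinsufficient hearts, with adjusted p-values of 0.575 and 0.443 by edgeR. Gli3 ran from 47.7 to 88.4 CPM, with a median of 76.2, in the 7 libraries with a marker score over 1.5 and from 38.5 to 70.9 CPM, with a median of 45.3, in the other 16. With the score as a covariate its log2 fold changes against wild type were 0.02 in triple-knockout and -0.07 in haploinsufficient hearts, and the triple-knockout value was 0.17 without triple-knockout replicate 7. Within library IDs 1 to 12 the haploinsufficient value of Gli3 was -0.10 and within IDs 19 to 30 it was 0.59. Gli2 (mm10 chromosome 1, 118834061 to 119053619, minus strand), the main GLI activator, ran from 8.02 through 18.3 to 25.1 CPM in triple-knockout libraries, from 7.12 through 12.1 to 31.8 CPM in haploinsufficient libraries and from 13.05 through 15.1 to 19.8 CPM in wild-type libraries. Both GRK groups thus reached below and above the wild-type range. The Gli2 log2 fold change was 0.18 ± 0.27 in triple-knockout hearts and -0.04 ± 0.27 in haploinsufficient hearts, both against wild type. Between triple-knockout and haploinsufficient hearts it was 0.22 ± 0.28 (edgeR adjusted p = 0.748), but within library IDs 1 to 12 it was 1.01 (edgeR adjusted p = 0.0485) and within IDs 19 to 30 it was -0.40. Gli2 ran from 12.6 to 31.8 CPM in the 7 libraries with a marker score over 1.5 and from 7.12 to 19.8 CPM in the other 16.

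Of the 5 regulators of the GLI factors, none passed the test, and the 95% interval lay within 1.5-fold for 4, 3 and 4 of them in triple-knockout against wild-type, haploinsufficient against wild-type and triple-knockout against haploinsufficient hearts. Sufu, which holds GLI factors in the cytoplasm, averaged 16.0 ± 2.87, 15.3 ± 4.49 and 15.5 ± 3.02 CPM in triple-knockout, haploinsufficient and wild-type hearts (SD, n = 7, 8 and 8). Its log2 fold changes lay between 0.01 and 0.05, and the interval against wild type was -0.29 to 0.39 for the triple knockout and -0.32 to 0.35 for the haploinsufficient group. Csnk1a1 averaged 158 ± 7.44, 156 ± 6.24 and 155 ± 15.9 CPM in the same order, with intervals against wild type of -0.12 to 0.18 and -0.13 to 0.15. Its within-group SD of log2 CPM, 0.0960, was smaller than that of all but 0.129% of the genes. Kif7, the ciliary kinesin that organises the tip where GLI factors gather, averaged 29.3 ± 6.41, 33.4 ± 12.4 and 27.0 ± 5.41 CPM. The Kif7 log2 fold change was 0.33 ± 0.18 in haploinsufficient hearts against wild type (edgeR adjusted p = 0.357). It was 0.19 without haploinsufficient replicate 7 and -0.19 with the marker score as a covariate, and ran from -0.19 to 0.65 over the 40 alternatives. Spop ran from 49.9 through a median of 58.0 to 69.2 CPM in triple-knockout libraries, from 36.9 through 44.3 to 60.1 CPM in haploinsufficient libraries and from 40.3 through 50.4 to 80.0 CPM in wild-type libraries. The triple-knockout libraries overlapped the upper end of the haploinsufficient ones. The Spop log2 fold change was 0.30 ± 0.12 in triple-knockout against haploinsufficient hearts (edgeR adjusted p = 0.241). Stk36, a kinase of the fly pathway whose mouse gene is better known for motile cilia, was at 5.67 ± 1.97, 5.34 ± 2.62 and 6.34 ± 2.00 CPM in the same order, with log2 fold changes of -0.13 and -0.26 against wild type. Evc and Evc2 sit at the base of the cilium and pass the Smoothened signal on. Evc ran from 16.9 to 38.8 CPM in triple-knockout, 14.7 to 51.9 CPM in haploinsufficient and 15.6 to 28.2 CPM in wild-type libraries, and Evc2 from 25.6 to 43.9, 16.9 to 52.6 and 34.3 to 39.7 CPM. Evc stood at 25.5 to 51.9 CPM in the 7 libraries with a marker score over 1.5 and at 14.7 to 26.9 CPM in the other 16. Its log2 fold changes against wild type were 0.23 in triple-knockout and 0.31 in haploinsufficient hearts, and -0.37 and -0.50 with the score as a covariate.

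Among the transport genes that build the cilium, IFT-B held the highest estimates of the haploinsufficient comparison. Ift57 (mm10 chromosome 16, 49699294 to 49765126, plus strand), a subunit of the peripheral part of IFT-B, ran from 9.28 through a median of 10.2 to 15.7 CPM in triple-knockout libraries, from 9.67 through 12.9 to 26.9 CPM in haploinsufficient libraries and from 7.57 through 9.02 to 13.3 CPM in wild-type libraries. Every haploinsufficient and every triple-knockout library lay above the wild-type median. Wild-type replicate 4 at 13.3 CPM and haploinsufficient replicate 2 at 26.9 CPM were the highest of their groups. The log2 fold change of Ift57 was 0.56 ± 0.17 in haploinsufficient hearts against wild type (edgeR adjusted p = 0.0711), with a 95% interval of 0.22 to 0.90. It was 0.26 ± 0.17 in triple-knockout hearts against wild type (edgeR adjusted p = 0.652). Ift57 passed the test in haploinsufficient hearts in 3 of 40 alternative settings: with DESeq2 (adjusted p = 0.0309), and with edgeR without wild-type replicate 4 (adjusted p = 0.0444) or without haploinsufficient replicate 3 (adjusted p = 0.0415). Over the 23 settings that each leave out 1 library, its edgeR adjusted p ran from 0.0415 to 0.149, and its value was 0.43 without haploinsufficient replicate 2. With the marker score as a covariate it was 0.48, and without the 7 libraries of a score over 1.5 it was 0.63.

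Ift74 (mm10 chromosome 4, 94614520 to 94693233, plus strand), an IFT-B core subunit, ran from 5.42 through a median of 5.87 to 9.63 CPM in triple-knockout libraries, from 4.83 through 8.98 to 11.7 CPM in haploinsufficient libraries and from 2.65 through 6.08 to 8.40 CPM in wild-type libraries. The wild-type group reached lowest and the haploinsufficient group highest. Its log2 fold change in haploinsufficient hearts against wild type was 0.56 ± 0.23 (edgeR adjusted p = 0.198), and 0.33 with the marker score as a covariate. Ift52, another core subunit, averaged 19.5 ± 4.29, 20.8 ± 7.92 and 15.5 ± 3.69 CPM in triple-knockout, haploinsufficient and wild-type hearts (SD, n = 7, 8 and 8), with log2 fold changes against wild type of 0.33 and 0.42 and adjusted p-values of 0.566 and 0.232 by edgeR. The remaining 7 IFT-B genes, Ift20, Ift27, Ift46, Ift80, Ift81, Ift88 and Ift172, had log2 fold changes between -0.07 and 0.20 in triple-knockout hearts and between -0.01 and 0.29 in haploinsufficient hearts, both against wild type. Of the 10 IFT-B genes, 9 were positive in each of these comparisons (51.9% and 52.0% of all genes), which share the wild-type libraries. In triple-knockout against haploinsufficient hearts 4 of the 10 were positive (50.4% of all genes). Ift172 and Ift46, the tightest of these, had intervals against wild type of -0.11 to 0.32 and -0.14 to 0.24 in the triple knockout.

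**Figure D4:**
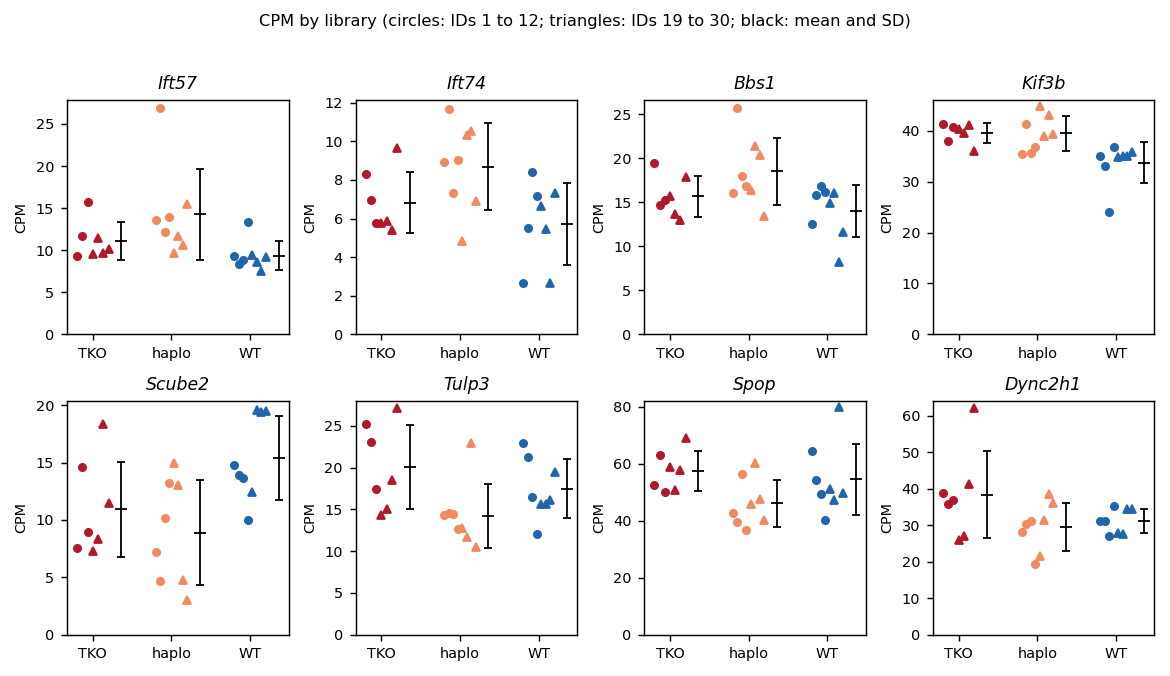
CPM in every library for the 8 genes Ift57, Ift74, Bbs1, Kif3b, Scube2, Tulp3, Spop and Dync2h1, with circles for library IDs 1 to 12, triangles for IDs 19 to 30 and the mean and SD in black. The groups overlap for each gene.

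Transport back from the tip and the motors showed small differences as well. Kif3b (mm10 chromosome 2, 153291416 to 153333389, plus strand), a motor subunit of the outward-moving kinesin-2, ran from 36.1 through a median of 40.4 to 41.3 CPM in triple-knockout libraries, from 35.4 through 39.3 to 45.0 CPM in haploinsufficient libraries and from 24.1 through 35.0 to 36.9 CPM in wild-type libraries. Of the wild-type libraries, only replicate 4 reached above the lowest library of the triple-knockout group. The log2 fold change was 0.23 ± 0.09 in both GRK groups against wild type, with adjusted p-values of 0.287 for the triple knockout and 0.179 for the haploinsufficient group by edgeR. Without wild-type replicate 3, the lowest library at 24.1 CPM, these Kif3b values were 0.18 and 0.18. Kif3a, its partner, had log2 fold changes of 0.05 and -0.05. Dync2h1, the heavy chain of the dynein that returns cargo to the base, averaged 38.3 ± 11.9 CPM in triple-knockout, 29.6 ± 6.51 CPM in haploinsufficient and 31.2 ± 3.36 CPM in wild-type hearts (SD, n = 7, 8 and 8). Its log2 fold change was 0.36 ± 0.15 in triple-knockout against haploinsufficient hearts (edgeR adjusted p = 0.255). Ift122 and Ift140 of IFT-A had intervals of -0.19 to 0.20 and -0.10 to 0.41 in triple-knockout hearts against wild type. Ift140 lies 1.74 Mb from Nkx2-5, the locus of the driver.

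Tulp3 (mm10 chromosome 6, 128321161 to 128355851, minus strand), an adaptor that brings membrane receptors such as the Hedgehog repressor Gpr161 into the cilium with IFT-A, gave the smallest p between the GRK groups. It ran from 14.4 through a median of 18.5 to 27.2 CPM in triple-knockout libraries, from 10.5 through 13.6 to 23.005 CPM in haploinsufficient libraries and from 12.1 through 16.3 to 22.9 CPM in wild-type libraries. All haploinsufficient libraries except replicate 7, at 23.005 CPM, were at or below 14.6 CPM. Its log2 fold change was 0.48 ± 0.17 in triple-knockout against haploinsufficient hearts (edgeR adjusted p = 0.183), and 0.66 without haploinsufficient replicate 7. Against wild type the Tulp3 estimates had opposite signs, 0.21 in triple-knockout and -0.27 in haploinsufficient hearts, and neither passed the edgeR test (adjusted p = 0.730 and 0.424).

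Small GTPases, the BBSome and the transition zone completed the set. Arl13b, which marks the ciliary membrane, averaged 11.8 ± 1.68, 13.5 ± 3.03 and 11.95 ± 1.62 CPM in triple-knockout, haploinsufficient and wild-type hearts (SD, n = 7, 8 and 8). Rab23, a negative regulator of the pathway in mouse, averaged 12.1 ± 3.20, 10.5 ± 1.41 and 10.01 ± 2.16 CPM, and Rab34 27.4 ± 4.38, 27.7 ± 5.93 and 28.05 ± 3.72 CPM. The log2 fold changes of these 3 GTPases lay between -0.21 and 0.26 in the 3 comparisons. The BBSome is a coat complex that removes cargo from cilia. Of its members Bbs1, Bbs2, Bbs4, Bbs5 and Bbs7, only Bbs1 reached an unadjusted p under 0.05. Bbs1 (mm10 chromosome 19, 4886882 to 4906627, minus strand) ran from 13.0 through a median of 15.3 to 19.4 CPM in triple-knockout libraries, from 13.4 through 17.4 to 25.7 CPM in haploinsufficient libraries and from 8.19 through 15.3 to 16.8 CPM in wild-type libraries. Of the haploinsufficient libraries, 5 lay above every wild-type library, and the other 3 lay within the wild-type range. Bbs1 had a log2 fold change of 0.39 ± 0.15 in haploinsufficient hearts against wild type (edgeR adjusted p = 0.161) and 0.17 ± 0.15 in triple-knockout hearts (edgeR adjusted p = 0.769). Bbs1 lies 0.581 Mb from the targeted Adrbk1 gene, and any effect of the targeted segment was not tested. Bbs5, the lowest of the cilium genes, was at 1.93 ± 0.485, 1.33 ± 0.814 and 1.37 ± 0.691 CPM, and its interval in triple-knockout hearts against wild type, -0.27 to 1.16, is the widest of the BBSome genes. In the transition zone, the gate at the cilium base, Mks1 had log2 fold changes against wild type of 0.25 in triple-knockout and 0.34 in haploinsufficient hearts. Cc2d2a had 0.22 ± 0.11 in triple-knockout against haploinsufficient hearts (edgeR adjusted p = 0.327), and Tctn1 had -0.05 and -0.29 against wild type. Reads of Tctn1 cannot be told apart from those of Hvcn1 over 15.7% of its exon length, nor those of Kif7 from Ticrr over 1.06%.

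Promoter sequences were read to see what the members share apart from their function. RFX transcription factors bind the X-box of many ciliary genes, and the motif was searched as GTNNCC and GNAAC with 2, 3 or 4 bases of any kind between them, on both strands, in RefSeq windows of GRCm38.p6 from 250 bases before to 50 bases after the gene start. A window was given for 38 of the 44 genes, and none for Gli1, Shh, Csnk1a1, Ift122, Ift80 and Ift81. Of these 38 genes, 8 (21.1%) held a match, against 4.98% of all 27025 genes with a window. Matches were in Bbs1, Bbs4, Bbs7, Ift57, Ift74, Mks1, Stk36 and Tctn1, so that 7 of 26 cilium genes (26.9%) and 1 of 12 Hedgehog genes (8.33%) had one. The GLI motif, searched as GACCACCCA or GACCNCCCA on both strands, had no match in the 38 windows, against 1.14% of all genes, so no X-box match overlapped one. At that share few matches or none would be found in 38 windows, so their absence carries little weight. Gli1, the direct target among the members, had no window and was not searched. The 4 windows below belong to the X-box genes with the highest estimates in haploinsufficient hearts and show where the motif lies, with the matched bases in capitals and positions counted from the first transcribed base as 1. In Ift57 (chr16:49699044-49699343, plus strand) there were matches at -87 to -74 and at -60 to -48, the second one on both strands. The match lay at -5 to 8 in Ift74 (chr4:94614241-94614540, plus strand), at 2 to 15 in Bbs1 (chr19:4906578-4906877, minus strand) and at -24 to -11 in Mks1 (chr11:87852965-87853264, plus strand).
Ift57: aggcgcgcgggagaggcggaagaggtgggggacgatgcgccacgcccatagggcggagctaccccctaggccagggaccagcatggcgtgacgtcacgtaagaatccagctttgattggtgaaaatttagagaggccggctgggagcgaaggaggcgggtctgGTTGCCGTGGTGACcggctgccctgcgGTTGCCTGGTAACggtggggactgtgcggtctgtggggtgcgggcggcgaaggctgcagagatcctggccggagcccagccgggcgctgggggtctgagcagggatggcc
Ift74: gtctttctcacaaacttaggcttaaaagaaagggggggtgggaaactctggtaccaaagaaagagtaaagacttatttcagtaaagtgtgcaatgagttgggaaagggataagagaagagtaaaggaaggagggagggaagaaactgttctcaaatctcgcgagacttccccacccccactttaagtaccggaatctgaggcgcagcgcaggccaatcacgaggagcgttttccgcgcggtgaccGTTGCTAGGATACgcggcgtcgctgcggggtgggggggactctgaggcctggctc
Bbs1: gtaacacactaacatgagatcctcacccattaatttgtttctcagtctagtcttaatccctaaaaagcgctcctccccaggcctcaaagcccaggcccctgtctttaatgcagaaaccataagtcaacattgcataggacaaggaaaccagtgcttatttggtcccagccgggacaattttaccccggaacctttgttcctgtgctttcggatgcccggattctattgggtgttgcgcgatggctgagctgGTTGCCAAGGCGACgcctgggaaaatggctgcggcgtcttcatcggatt
Mks1: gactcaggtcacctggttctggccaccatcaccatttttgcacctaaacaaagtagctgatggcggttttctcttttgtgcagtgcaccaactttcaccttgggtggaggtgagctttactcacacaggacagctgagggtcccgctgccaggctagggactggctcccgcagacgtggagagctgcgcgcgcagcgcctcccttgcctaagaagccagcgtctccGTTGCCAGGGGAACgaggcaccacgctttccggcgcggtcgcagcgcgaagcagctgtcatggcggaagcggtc

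The 8 members with an X-box match had a median log2 fold change of 0.15 in triple-knockout hearts against wild type, beside 0.13 for the 29 tested members with a window and no match. In haploinsufficient hearts against wild type the median was 0.23 with a match and 0.014 without one, and in triple-knockout against haploinsufficient hearts it was -0.13 with a match and 0.083 without one. Both groups of genes overlapped, since Tctn1 and Stk36, with a match, were at -0.29 and -0.26 in haploinsufficient hearts, and Ift52 and Kif7, without one, at 0.42 and 0.33. The split was made with the fold changes known and was given no test.

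**Figure D5:**
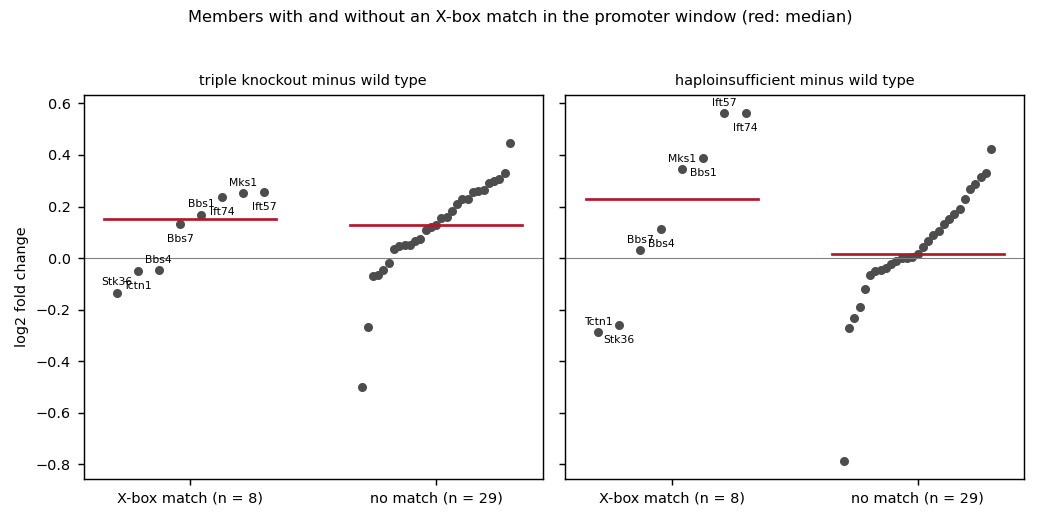
Log2 fold changes of the members with and without an X-box match in the promoter window, in triple-knockout (left) and haploinsufficient hearts (right) against wild type, with the median in red. The 8 genes with a match spread from -0.29 to 0.56 in haploinsufficient hearts and overlap the 29 genes without one.

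Other genes of the pathway were taken from 3 lists. Of 25 other Hedgehog pathway genes, which include the receptors, kinases and arrestins, none passed the edgeR test in triple-knockout hearts against wild type. In haploinsufficient hearts 2 fell and none rose, and 1 was higher in triple-knockout than in haploinsufficient hearts. The shares of all genes that passed in either direction were 1.19%, 2.21% and 0.323% in these 3 comparisons. Cdon, a co-receptor that binds the ligand together with Patched, ran from 111 to 149 CPM in triple-knockout libraries, 75.9 to 124 CPM in haploinsufficient libraries and 110 to 136 CPM in wild-type libraries. It fell in haploinsufficient hearts against wild type (log2 fold change -0.38 ± 0.09, edgeR adjusted p = 0.0247) and was higher in triple-knockout than in haploinsufficient hearts (0.53 ± 0.10, edgeR adjusted p = 0.0104). Btrc, which encodes the ubiquitin ligase subunit that starts the processing of Gli3, ran from 33.1 to 45.9, 27.5 to 44.9 and 38.1 to 54.0 CPM in the 3 groups in that order and fell in haploinsufficient hearts against wild type (-0.44 ± 0.10, edgeR adjusted p = 0.0179). Without haploinsufficient replicate 1 these 2 decreases missed the threshold, with edgeR adjusted p = 0.0667 for Cdon and 0.0524 for Btrc, and likewise without wild-type replicate 8 (0.0673 and 0.0525) or wild-type replicate 1 (0.0623 and 0.0515). The Cdon decrease also missed it without haploinsufficient replicate 2 (edgeR adjusted p = 0.0516) or 7 (0.0661), and both missed it with the marker score as a covariate (0.0922 for Cdon and 0.122 for Btrc). The difference of Cdon between the GRK groups passed in 33 of 40 alternatives, among those missed being the fit of only the groups compared (edgeR adjusted p = 0.0765) and the 16 libraries with a score of 1.5 or less (0.784).

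Of 20 Hedgehog target genes of mesenchyme, 18 were tested and none passed in any comparison, while 6, 5 and 3 had an unadjusted edgeR p under 0.05, beside 10.5%, 16.7% and 15.2% of all genes. The list went both ways. Against wild type, log2 fold changes were positive for 13 of 18 in triple-knockout hearts (51.9% of all genes) and 10 of 18 in haploinsufficient hearts (52.0%). In triple-knockout against haploinsufficient hearts 6 of 18 were positive (50.4% of all genes). The 3 targets described next were chosen after their values had been seen. Foxf1, a target in foregut and lung mesenchyme, ran from 0.454 through a median of 3.53 to 32.7 CPM in triple-knockout libraries, from 0 through 6.87 to 67.0 CPM in haploinsufficient libraries and from 0.2205 through 0.636 to 7.95 CPM in wild-type libraries. Foxf1, which is itself one of the markers in the score, was at 7.95 to 67.0 CPM in the 7 libraries with a marker score over 1.5 and at 0 to 7.59 CPM in the other 16. Hhip, a target that traps the ligand, followed the same libraries, with 5.78 to 26.2 CPM in the 7 and 0 to 4.203 CPM in the 16. Ptch1, the receptor and the most widely used target beside Gli1, averaged 46.2 ± 24.3 CPM in triple-knockout, 46.7 ± 24.1 CPM in haploinsufficient and 31.8 ± 5.11 CPM in wild-type hearts (SD, n = 7, 8 and 8). Ptch1 ran from 36.7 to 93.2 CPM in the 7 libraries and from 20.7 to 47.9 CPM in the 16.

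Of 59 other primary cilium genes, 57 were tested and none passed in any comparison, while 7, 4 and 10 had an unadjusted edgeR p under 0.05, beside the same shares of all genes. Their summed level was 1091 to 1275 CPM in triple-knockout libraries, 1006 to 1169 CPM in haploinsufficient libraries and 1074 to 1121 CPM in wild-type libraries. Invs, which encodes inversin of the proximal cilium, had the smallest p of the list at a log2 fold change of 0.34 ± 0.13 in triple-knockout hearts against wild type (edgeR adjusted p = 0.260). Kif24, a kinesin that restrains cilium formation, was at 0.44 ± 0.14 in triple-knockout against haploinsufficient hearts (edgeR adjusted p = 0.150), followed by Bbs9 of the BBSome at 0.61 ± 0.20 (edgeR adjusted p = 0.156). Only 3 of 12 markers of multiciliated cells passed the filter, with a summed level of the list of 9.54 to 16.0, 9.11 to 18.8 and 10.1 to 23.3 CPM in triple-knockout, haploinsufficient and wild-type libraries.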

How the data were processed

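The authors deposited integer read counts per gene and FPKM values for 23 libraries of total RNA, which per the labels' protocols was depleted of ribosomal RNA and sequenced from a single end without strand information. Per the submitters' processing notes, processing used or named mm10, TopHat2 (version 2.0.10), Bowtie2, HTSeq and Cufflinks (version 2.1). Exon lengths came from the authors' deposited annotation.

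Counts were fitted in edgeR (version 4.0.16, R 4.3.3) by robust quasi-likelihood (the legacy estimate of dispersions) after TMM scaling, on the 23 libraries together, with 1 mean per group and a term that separates library IDs 1 to 12 from IDs 19 to 30, whose meaning is not given in the sources used here. The expression filter required at least 10 reads in enough libraries and 15 in total. The single-exon features of the targeted genes were summed per gene. In edgeR these genes and Cre stayed in the scaling and the fit. They were left out of the p adjustment, of all counts of genes tested or called, and of the DESeq2 and limma fits. The ranking of within-group SD over 13946 genes includes them. P-values are two-sided, adjusted by Benjamini-Hochberg over 13941 genes in each comparison, with a threshold of 0.05. Rose and fell are used of genes that passed. CPM uses TMM-scaled library sizes. The common biological coefficient of variation was 0.208. No 2 libraries of a group were as alike as a library deposited more than once (lowest chi-square per degree of freedom 5.00). Alternatives used DESeq2 (version 1.42.0), limma (version 3.58.1) on log2 FPKM with a pseudocount of 0.1 or 1, other scalings and filters, and libraries left out. The members and all lists were chosen with earlier results of these data known. All 44 members are named, and of the other lists the genes that passed and otherwise up to 4 per list with the smallest p. The result of 1 gene of these lists is not reported here. Ptch1, Hhip, Epcam and Foxf1 were also named after their values had been seen.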

Additional observations from a re-analysis of the deposited data

Results flagged for a closer look

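Of 126 groups of values examined (42 genes in 3 groups), 14 held a library far from the others of its group on the log2 CPM scale. At 1 in 20, 6.3 would be flagged if all libraries were equally precise. The libraries differ in depth, so the 14 cannot be set against 6.3 directly. No explanation was tested for any of them.

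Haploinsufficient replicate 2, the library with the fewest counts, accounted for 6: low Sufu (7.59 CPM, others 13.3 to 21.5), Hhat (4.67 CPM, others 9.70 to 15.2), Ift46 (30.4 CPM, others 38.8 to 42.9), Ift140 (15.2 CPM, others 33.9 to 45.4) and Bbs5 (0 CPM, others 0.647 to 2.30), and high Ift57 (26.9 CPM, others 9.67 to 15.5). Its Ift57 value is the highest of all 23 libraries. Other haploinsufficient values were high Tulp3 in replicate 7 (23.01 CPM, others 10.5 to 14.6) and low Bbs4 in replicate 6 (5.05 CPM, others 8.22 to 10.7).

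Wild-type replicate 3 was low for Disp1 (15.7 CPM, others 23.3 to 31.9) and Kif3b (24.1 CPM, others 33.1 to 36.9) and high for Csnk1a1 (193 CPM, others 141 to 159). Wild-type replicate 4, which had a marker score over 1.5, was high for Ift57 (13.3 CPM, others 7.57 to 9.47), and wild-type replicate 7 was low for Mks1 (4.71 CPM, others 7.37 to 9.70). The 1 triple-knockout value was low Cc2d2a in replicate 4 (34.4 CPM, others 42.7 to 49.5).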

How the results depend on the processing

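The number of members called stayed at 0 in each comparison under every alternative run, with these exceptions: in haploinsufficient hearts against wild type it was 1 (Ift57) with DESeq2, and from 0 to 1 over the 23 settings that leave out 1 library, and in triple-knockout against haploinsufficient hearts it was 1 (Gli2) within library IDs 1 to 12. With 1 library left out it ran from 0 to 0 in the other 2 comparisons. In triple-knockout against haploinsufficient hearts a member count of 0 carries little weight in several settings, because hardly any gene was called. All genes called numbered 0 with limma at either pseudocount. They numbered 1 with a correction for exon length, within IDs 19 to 30, without the libraries of a score over 1.5 and with only the groups compared. Signs turned with an unadjusted p under 0.05 on one side for Scube1 in haploinsufficient hearts against wild type (-0.39) and Evc in triple-knockout against haploinsufficient hearts (0.52), both within IDs 1 to 12. With the marker score as a covariate, Gli1 turned to -0.41, -1.26 and 0.85 in triple-knockout and haploinsufficient hearts against wild type and between the GRK groups, and Evc to -0.37 and -0.50 in the first 2. Gli1 turned to -0.11 in haploinsufficient hearts without the libraries of a score over 1.5. The cause was not tested. Of 5276 values of single genes under an alternative, 304 others had another sign with an unadjusted p of 0.05 or above on both sides, from which no direction is read.

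The number of all genes called, against which the members are read, was less stable: 282, 531 and 276 with DESeq2, and 119 to 190, 166 to 596 and 13 to 412 with 1 library left out, in the order triple knockout against wild type, haploinsufficient against wild type and triple knockout against haploinsufficient. It was 309, 257 and 1 with only the groups compared in the fit. Whether equal replicate numbers mark paired libraries was not settled. Of 22 same-numbered pairs, 5 had correlated deviations over 0.1 (range -0.195 to 0.467), and differently numbered pairs were not examined beside them. With the replicate number as a block, 0 members and 151, 231 and 26 of all genes were called. Genes under about 2 CPM, Bbs5, Shh and Ihh among them, are limited by depth.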
